A study of Arabidopsis thaliana with 36 samples.

Results

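The shade response under UV-B was measured in seedlings of *hfr1-101*, a mutant allele of *HFR1*, by comparing 3 RNA-seq libraries from plants given low R:FR together with UV-B (+FR+UVB) with 3 libraries from plants given UV-B without added far-red light (+UVB). All 20926 genes of the authors' filtered table were followed, out of 33602 genes counted, in 6 of the 36 libraries of the series. Both groups carried *hfr1-101* in the Col background and both received UV-B, so far-red light was the only treatment that differed. Seedlings were 7 days old, each sample pooled 30 whole seedlings from an independent plate, and the exposure lasted 3 h at a UV-B dose rate of 0.06 mW/cm2. The R:FR was 4.7 in white light (WL) and is given as 0.05 in the growth protocol and 0.08 in the treatment protocol for low R:FR. Further groups of 3 libraries each, used here only for comparison, were *hfr1-101* under +FR and WL, *uvr8-6* under +FR+UVB and +UVB, and wild type (Col) under +FR+UVB and +UVB. The *uvr8-6* mutant lacks a functional UV-B photoreceptor.

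A low ratio of red to far-red light signals neighbouring vegetation. It inactivates phytochrome B, whereupon PHYTOCHROME INTERACTING FACTORs (PIFs), a family of basic helix-loop-helix (bHLH) proteins, accumulate and activate genes for auxin synthesis, auxin response and cell elongation. PIFs bind the G-box, CACGTG, and the related PBE-box, CACATG or CATGTG. Shade also induces brakes on this response: HFR1 is an atypical helix-loop-helix protein that forms dimers with PIFs and keeps them from DNA, and PIL1 and PAR1 are related proteins that also restrain the shade response. UV-B is perceived by UVR8, which inhibits the ubiquitin ligase COP1, and HFR1 is a COP1 substrate. The comparison asks which part of the low R:FR response is seen under UV-B when HFR1 is lost.

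Depth was even in the 6 libraries, with 19030584 to 20936532 reads counted on genes, within 9749710 to 21175260 for the whole series. Levels are given in CPM, counts scaled to a common library total after TMM normalisation, and 3 counts, taken as the floor of detection, corresponded to 0.128 to 0.317 CPM across the series. The first +UVB library of *hfr1-101* stood apart. Over the genes above a minimum mean CPM it correlated with its replicates at r = 0.9614 and 0.9597, against 0.9844 between the other pair of +UVB libraries and 0.9941 to 0.9948 among the +FR+UVB libraries. It had 22.1 CPM of the salicylate-response gene *PR1*, which stood at 0, 0.182 and 0.0559 CPM under +FR+UVB and at 0.152 and 0.395 CPM in the other +UVB libraries. A list of 21 rapid stress and defence genes summed to 221, 259 and 263 CPM under +FR+UVB and to 470, 197 and 251 CPM under +UVB. Summed green-shoot markers stood at 32900, 30200 and 28200 CPM under +FR+UVB and at 19200, 25300 and 28000 CPM under +UVB, where the first library was again the extreme, and root markers at 3000 to 3410 CPM under +FR+UVB and 3340 to 3970 CPM under +UVB. In pooled whole seedlings, fewer cells of a type and less RNA per cell cannot be told apart. Counts were therefore also computed without this library, and its part in the results is given by those values.

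The *HFR1* transcript (AT1G02340, chromosome 1 of TAIR10.1 from 465616 to 467880) was itself among the largest rises, at 145, 152 and 125 CPM under +FR+UVB and 3.89, 6.75 and 7.29 CPM under +UVB. The 2 groups were far apart in every library. The study's genotyping primers for *hfr1-101* span chromosome 1 from 466890 to 467090, a stretch that holds a coding exon. The lesion itself was not examined here, and transcript counts over the whole gene were not used to check it. The *UVR8* transcript (AT5G63860) was present at 68.7, 73.9 and 71.5 CPM under +FR+UVB and 65.6, 68.6 and 76.0 CPM under +UVB, with overlapping groups.

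Low R:FR changed 308 genes in *hfr1-101* under UV-B by more than 2-fold, with an adjusted p below 0.05 in edgeR's quasi-likelihood test. Of these 182 rose, or 0.87% of the genes tested, and 126 fell, or 0.602%. The rises were led by *FLP1*, *PIL1*, *AT3G21320*, *ST2A*, *IAA29*, *HFR1*, *IAA34* and *ATHB2*, the 8 largest among genes with at least 50 normalised counts in the higher group and no overlap of libraries, and the falls, by the same rule, by *PRX52*, *SAG13*, *HAK5*, *AT5G44572*, *AT1G03940*, *UF3GT*, *AT1G03495* and *MYB90*. Changes over 4-fold were called for 59 genes that rose and 42 that fell. The +FR+UVB and +UVB libraries did not overlap for any of the 182 genes that rose (182 of 182) and for 100 of the 126 that fell, against 20.8% of all genes tested. Without the fold minimum, 840 genes were higher and 416 lower.

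The rises depended less than the falls on the library that stood apart. Without +UVB replicate 1, 150 genes rose, 136 of them among the 182, and 83 genes fell, 66 of them among the 126. This library exceeded the mean of its replicates by more than 2-fold for 46 of the 126 genes that fell, against 12 genes for replicate 2 and 1 for replicate 3. Other single libraries also moved the falls: 70 genes fell without +FR+UVB replicate 1, 66 without +FR+UVB replicate 2, 237 without +UVB replicate 2 and 311 without +UVB replicate 3. Scaled to library totals without TMM factors, the median log2 fold change of all genes was -0.10 in place of 0.01, and the calls split into 144 higher and 208 lower. With DESeq2's size factors they split into 178 higher and 195 lower.

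The list of shade brakes gave the clearest response, and 4 of 5 members tested rose, against 0.87% of all genes tested. *PIL2* was listed with them as a relative of *PIL1*, and no brake function of it was tested here. *PIL1* (AT2G46970), a direct PIF target, stood at 153, 141 and 134 CPM under +FR+UVB against 1.28, 1.93 and 0.565 CPM under +UVB. Every +FR+UVB library was far above every +UVB library, with a log2 fold change of 6.80 (SE 0.23, edgeR adjusted p = 2.64e-18). *HFR1* rose by 4.56 on the same scale (SE 0.24, edgeR adjusted p = 1.42e-13). *PIL2* (AT3G62090), a paralogue of *PIL1*, had 22.1, 27.4 and 19.1 CPM under +FR+UVB and 3.33, 5.89 and 5.03 CPM under +UVB, with a log2 fold change of 2.26 (SE 0.20, edgeR adjusted p = 3.57e-09). *PAR1* (AT2G42870) was low throughout, at 2.87, 3.53 and 2.40 CPM under +FR+UVB and 0.717, 0.457 and 0.282 CPM under +UVB, and still separated the groups (2.56, SE 0.36, edgeR adjusted p = 1.96e-05). Its relative *PAR2* had a log2 fold change of 0.56 and was not called (edgeR adjusted p = 0.266). The median over the list was 2.56, against 0.01 over all genes, and the same 4 members were called without +UVB replicate 1.

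Upstream of *PIL1*, the study placed a chromatin immunoprecipitation amplicon over paired G-boxes, shown here because *PIL1* is among the largest rises and its promoter was assayed in the study. It lies on chromosome 2 of TAIR10.1, chr2:19298962-19299095 on the minus strand, between 1104 and 1237 bases upstream of the annotated gene start, and is given 5′ to 3′ with each CACGTG in capitals.
*PIL1*: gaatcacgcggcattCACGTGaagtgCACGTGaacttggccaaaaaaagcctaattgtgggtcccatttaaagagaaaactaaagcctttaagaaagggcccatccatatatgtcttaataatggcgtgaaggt
The study also assayed the *HFR1* and *XTR7* promoters, whose amplicons are not shown. The *HFR1* amplicon, 1415 to 1494 bases upstream, held no complete CACGTG in TAIR10.1. It ended in CACGT, and bases beyond its edge were not read, so a G-box crossing the edge was not looked for. The study describes a G-box in this fragment. The *XTR7* amplicon, 1714 to 1799 bases upstream, held 1 CACGTG. Of the 6 PIF transcripts listed, *PIF1*, *PIF3*, *PIF4*, *PIF5*, *PIF7* and *UNE10*, 0 were called, with a median of -0.31. *PIL2*, given above, was counted with the shade brakes and not in this list. *PIF4* had 16.5, 15.9 and 16.7 CPM under +FR+UVB and 11.0, 25.2 and 29.3 CPM under +UVB, where the spread of the +UVB libraries enclosed the other group (-0.42, edgeR adjusted p = 0.262). Without +UVB replicate 1, the lowest of its group, the log2 fold change was -0.76 (edgeR adjusted p = 0.00197), still under the fold minimum. *PIF5* had a log2 fold change of 0.11.

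**Figure D1:**
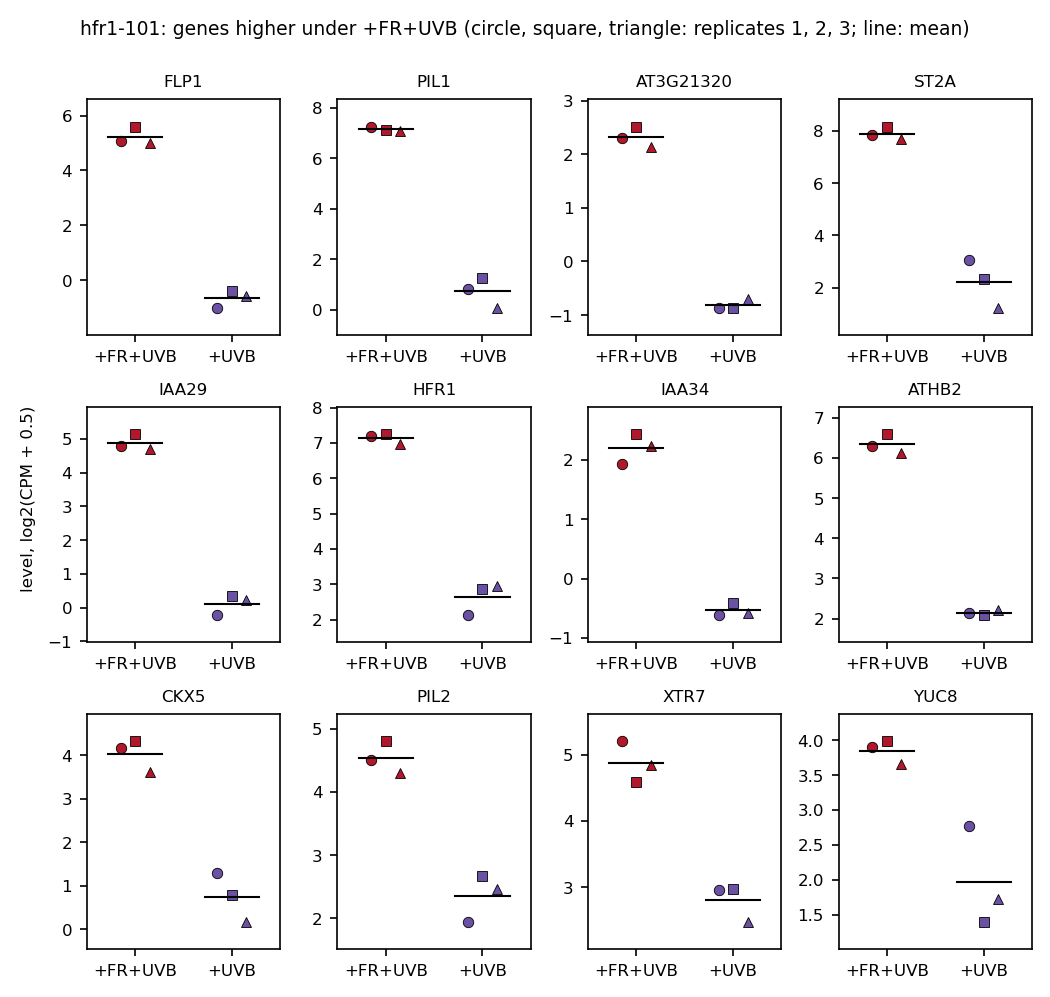
Levels of 12 genes that rose in *hfr1-101*, as log2(CPM + 0.5) for each of the 3 libraries under +FR+UVB (left) and under +UVB (right). Lines are means. All 3 +FR+UVB points lie above all 3 +UVB points in each panel, as for *PIL1* with 134 CPM in the lowest +FR+UVB library and 1.93 CPM in the highest +UVB library.

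Transcription factors of the homeodomain-leucine zipper class II, which shade induces rapidly, rose for 3 of 10 members, against 0.87% of all genes tested. *ATHB2* (AT4G16780), the shade marker of this family, stood at 77.7, 96.1 and 69.0 CPM under +FR+UVB against 3.89, 3.76 and 4.12 CPM under +UVB. The +UVB libraries were nearly equal and all far below, with the smallest p-value of the genes named here (log2 fold change 4.36, SE 0.12, edgeR adjusted p = 1.65e-20). *ATHB4* (3.32, 3.65 and 1.62 CPM under +FR+UVB against 0.973, 0.609 and 0.395 CPM under +UVB) rose by 2.09 on the log2 scale (SE 0.29, edgeR adjusted p = 1.32e-05). *HAT2* rose by 1.1 (SE 0.17, edgeR adjusted p = 5.57e-05), and missed the fold minimum without +UVB replicate 3 (0.97) and without TMM factors (0.98). Among 12 bHLH and partner proteins of growth control, *IBL1* rose by 1.43, *BNQ2* by 1.38 and *BIM1*, a brassinosteroid signalling factor, by 1.03. *BNQ2* was not called without +FR+UVB replicate 2 (edgeR adjusted p = 0.0692) or +UVB replicate 2 (0.0535), and *BIM1* missed the fold minimum without +FR+UVB replicate 2 or without TMM factors (0.91 in each).

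Among 9 photoreceptor and phytochrome A transport genes, only *PHYA* was called. *PHYA*, the receptor of the far-red high irradiance response, had 144, 139 and 134 CPM under +FR+UVB and 69.4, 69.2 and 50.8 CPM under +UVB, about 2-fold apart with no overlap (log2 fold change 1.14, SE 0.12, edgeR adjusted p = 2.15e-07). *PHYB* missed the fold minimum narrowly at 0.98 although its libraries, 264, 295 and 256 CPM under +FR+UVB against 133, 140 and 140 CPM under +UVB, were well separated (edgeR adjusted p = 5.33e-12). *FHL*, which helps phytochrome A into the nucleus, was at 2.01, 1.95 and 1.96 CPM under +FR+UVB and 0.564, 2.23 and 0.282 CPM under +UVB. The groups overlapped through +UVB replicate 2 (0.92, edgeR adjusted p = 0.257), and without that library *FHL* was called (2.18, edgeR adjusted p = 0.00345).

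Of 9 auxin synthesis genes tested 3 rose and 1 fell, against 0.87% and 0.602% of all genes tested. Their median was -0.21, and 4 of the 9 values were positive. YUCCA flavin monooxygenases convert indole-3-pyruvate to auxin. *YUC8* (AT4G28720) stood at 14.4, 15.3 and 12.1 CPM under +FR+UVB against 6.30, 2.13 and 2.82 CPM under +UVB (log2 fold change 1.89, SE 0.24, edgeR adjusted p = 5.21e-06). *YUC9* had 3.5, 5.96 and 2.46 CPM under +FR+UVB against 0.615, 0.812 and 0.169 CPM under +UVB (2.86, SE 0.40, edgeR adjusted p = 1.74e-05), and *YUC2* rose by 1.31 (SE 0.23, edgeR adjusted p = 0.000446). In each of the 3 genes all +FR+UVB libraries were the higher ones. *TAA1* (AT1G70560), the aminotransferase that makes indole-3-pyruvate from tryptophan, went the other way, at 4.07, 3.04 and 3.24 CPM under +FR+UVB and 10.8, 10.1 and 9.66 CPM under +UVB. Its log2 fold change was -1.56 (SE 0.18, edgeR adjusted p = 1.28e-06). The members not called were *TAR2*, a relative of *TAA1* (-0.41), *YUC3* (-0.21), *YUC4* (-1.26), *YUC5* (0.00) and *YUC6* (-0.72).

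Of 27 Aux/IAA genes, which encode repressors that auxin both degrades and induces, 7 rose and 0 fell. Their median was 0.55, and 0.87% of all genes tested rose. *IAA29* (AT4G32280) stood at 27.2, 35.0 and 25.8 CPM under +FR+UVB and was close to absent under +UVB, at 0.359, 0.761 and 0.678 CPM (log2 fold change 5.60, SE 0.34, edgeR adjusted p = 2.61e-12). *IAA34*, with 3.32, 4.92 and 4.19 CPM under +FR+UVB and 0.154, 0.254 and 0.169 CPM under +UVB, rose by 4.38 (SE 0.44, edgeR adjusted p = 6.96e-08). *IAA19*, a marker of hypocotyl growth, had 21.3, 21.0 and 19.4 CPM under +FR+UVB and 3.69, 2.79 and 2.32 CPM under +UVB (2.80, SE 0.28, edgeR adjusted p = 6.57e-08). The +FR+UVB libraries of *IAA19* agreed closely and lay above every +UVB library. *IAA5* rose by 2.54. *IAA6* rose by 2.35 (edgeR adjusted p = 0.0112), a call that was lost without +UVB replicate 1 (0.0876), which left 6 Aux/IAA genes. Of 7 conjugation and oxidation genes 2 rose, with a median of 0.78. *GH3.3*, which joins auxin to amino acids, had 17.9, 22.9 and 15.1 CPM under +FR+UVB and 8.15, 4.72 and 2.15 CPM under +UVB (1.88, SE 0.44, edgeR adjusted p = 0.00814), so its +UVB libraries alone spread nearly 4-fold. The influx carrier *AUX1* was the called member of 14 transport genes, at 68.7, 74.7 and 58.2 CPM under +FR+UVB and 29.3, 30.7 and 22.3 CPM under +UVB (1.29, SE 0.15, edgeR adjusted p = 5.51e-07). The efflux carrier *PIN3* had a log2 fold change of 1.00 (edgeR adjusted p = 8.62e-09) and did not exceed the fold minimum.

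Small auxin up RNAs (SAURs) formed the longest of the family lists with rises, so their count is not set against those of shorter lists. Of 80 genes listed 64 were tested. Of these 18 rose and 0 fell, with a median of 0.49, while 0.87% of all genes tested rose. Without +UVB replicate 1 the count was 13. The *SAUR19* subfamily, whose proteins promote cell expansion, led the group. *SAUR22* (AT5G18050) had 10.8, 11.6 and 8.83 CPM under +FR+UVB and 0.205, 0.761 and 0.678 CPM under +UVB (log2 fold change 4.24, SE 0.36, edgeR adjusted p = 2.52e-09). *SAUR23* rose by 4.01 (SE 0.33, edgeR adjusted p = 1.33e-09) and *SAUR19* by 3.31 (SE 0.33, edgeR adjusted p = 5.55e-08). These genes lie close together on chromosome 5, *SAUR22* and *SAUR23* being 692 bases apart, and are similar in sequence, so the assignment of reads among them is uncertain. AT1G29490 on chromosome 1, here labelled *SAUR68*, was at 1.32, 1.58 and 1.45 CPM under +FR+UVB and at 0, 0.0508 and 0.452 CPM under +UVB (3.13, edgeR adjusted p = 0.000441, with values from 2.52 to 5.49 over the alternatives). Its relative AT1G29510, to which the same symbol is given, was not called (0.90, edgeR adjusted p = 0.036).

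Genes of the cell wall responded in part. *XTR7* (AT4G14130), a xyloglucan endotransglycosylase used as a shade marker, stood at 36.3, 23.6 and 28.2 CPM under +FR+UVB and 7.28, 7.31 and 5.03 CPM under +UVB (log2 fold change 2.16, SE 0.29, edgeR adjusted p = 8e-06). Of 29 genes of its family 3 rose, among them *XTH8* (1.14) and *XTH17* (1.13), and 1 fell, against 0.87% and 0.602% of all genes tested. The gene that fell was *XTH31*, at 60.9, 58.9 and 66.3 CPM under +FR+UVB and 186, 278 and 196 CPM under +UVB, with the groups about 3-fold apart (-1.83, SE 0.16, edgeR adjusted p = 3.57e-09). Of 26 expansins, which loosen walls, 2 rose, against the same 0.87%. *EXPA11* rose by 1.18 (edgeR adjusted p = 4.07e-06) and *EXPA8* by 1.51 (edgeR adjusted p = 0.0107). The call of *EXPA8* was lost without +UVB replicate 1 (0.0911) or replicate 2 (0.0656).

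Other hormone genes changed singly. *ST2A* (AT5G07010), a sulphotransferase that inactivates a hydroxylated jasmonate, was at 227, 286 and 207 CPM under +FR+UVB and 7.79, 4.47 and 1.86 CPM under +UVB (log2 fold change 5.66, SE 0.43, edgeR adjusted p = 3.4e-10). Its neighbour and paralogue *ST2B* rose by 2.23 (SE 0.22, edgeR adjusted p = 3.61e-08), and reads may be divided between the 2. These were the called members of 18 jasmonate genes, with a median of 0.09, so the JAZ repressors and synthesis enzymes of the list were not called. *CKX5* (AT1G75450), which degrades cytokinin, had 17.6, 19.5 and 11.7 CPM under +FR+UVB and 1.95, 1.22 and 0.621 CPM under +UVB (3.66, SE 0.31, edgeR adjusted p = 3.2e-09). In the same list of 14 genes, 4 type-A response regulators fell, which cytokinin induces and which dampen its signal. *ARR7* was at 4.24, 3.53 and 2.79 CPM under +FR+UVB and 10.2, 12.1 and 15.4 CPM under +UVB (-1.83, SE 0.22, edgeR adjusted p = 1.2e-06), *ARR6* fell by 1.21 (edgeR adjusted p = 2.79e-05) and *ARR4* by 1.06 (edgeR adjusted p = 1.15e-07). *ARR15* fell by 1.91 from very low levels (edgeR adjusted p = 0.0467), a call lost whichever of the 6 libraries was left out, with adjusted p from 0.055 to 0.221.

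Ethylene precursor synthases rose for *ACS8* by 2.83 (3.84, 5.17 and 3.13 CPM under +FR+UVB against 0.820, 0.609 and 0.226 CPM under +UVB, edgeR adjusted p = 0.000105) and *ACS4* by 1.70 (edgeR adjusted p = 0.00131), 2 of 10 genes in their list. The gibberellin synthesis gene *GA20OX3* stood at 1.60, 1.40 and 1.51 CPM under +FR+UVB and at or under the floor in every +UVB library, so that it was at least 8.9-fold higher (edgeR adjusted p = 0.000568). *GA2OX6*, which inactivates gibberellin, rose by 1.02 (edgeR adjusted p = 0.0264), at the edge of the fold minimum, and was not called without +FR+UVB replicate 2 (0.83, edgeR adjusted p = 0.164), +UVB replicate 2 (0.89, 0.0992) or +UVB replicate 3 (1.00, 0.0518), or without TMM factors (0.89). Of 10 brassinosteroid enzymes 0 were called, with a median of 0.11. The largest rises outside these groups were *FLP1* (AT4G31380, annotated as flowering-promoting factor-like), at 33.4, 48.0 and 31.5 CPM under +FR+UVB and 0, 0.254 and 0.169 CPM under +UVB (8.00, SE 0.46, edgeR adjusted p = 8.5e-13), and *AT3G21320*. *AT3G21320* had 4.47, 5.23 and 3.91 CPM under +FR+UVB and 0.0512, 0.0508 and 0.113 CPM under +UVB, at least 26.8-fold higher than the floor (edgeR adjusted p = 1.26e-09).

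**Figure D2:**
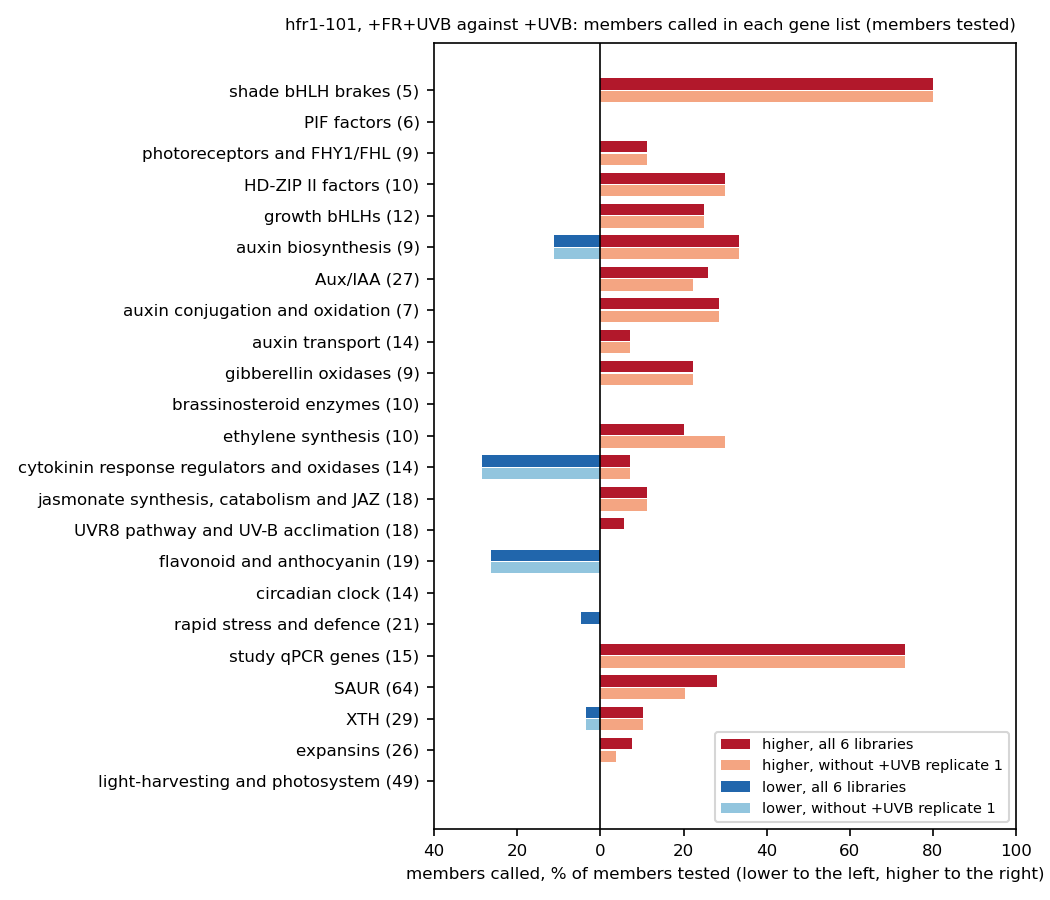
Share of the tested members of each gene list that rose (to the right) or fell (to the left) under +FR+UVB against +UVB in *hfr1-101*, in % of the members tested, which stand in brackets. Dark bars use all 6 libraries and pale bars leave out +UVB replicate 1. The study's qPCR genes (11 of 15 higher) and the shade brakes (4 of 5) have the longest bars and keep them in the pale version.

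The genes with qPCR primers in the study's oligonucleotide table, a list chosen around shade and UV-B responses and so no independent evidence of direction, included 11 that rose out of 15, with a median of 2.26. Those not called were *FHL*, *PIF4* and *PIF5*, given above, and the reference gene *PP2A* at 0.12. Of the UVR8 pathway only the scarce *BBX23* was called. The targets of UV-B acclimation were strongly expressed in both groups: the photoprotective *ELIP2* had 3710, 3740 and 3620 CPM under +FR+UVB and 2920, 2450 and 3920 CPM under +UVB (0.25, edgeR adjusted p = 0.641), with overlap. The transcription factor gene *HY5* stood at 101, 117 and 117 CPM under +FR+UVB and 89.7, 88.5 and 120 CPM under +UVB (0.17, edgeR adjusted p = 0.534). The UVR8 repressor gene *RUP2* stood at 148, 172 and 167 CPM under +FR+UVB and 111, 110 and 176 CPM under +UVB (0.30, edgeR adjusted p = 0.329). In all 3 genes the third +UVB library lay above every +FR+UVB library. *ELIP2*, *HY5* and *RUP2* were named after their values were seen. *BBX23* had 0.287, 0.547 and 0.112 CPM under +FR+UVB, was at the floor in every +UVB library, so that it was at least 1.86-fold higher, and was not called without +FR+UVB replicate 1 or 2 or without +UVB replicate 1 or 2 (edgeR adjusted p = 0.0754, 0.238, 0.0888 and 0.117). The list of 18 had a median of 0.24.

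Of 19 flavonoid and anthocyanin genes, 5 fell and 0 rose, with a median of -0.39, while 0.602% of all genes tested fell. The same count in this list was obtained without +UVB replicate 1. *MYB90* (AT1G66390), a MYB activator of anthocyanin genes, stood at 4.41, 4.50 and 4.36 CPM under +FR+UVB and 26.7, 44.8 and 16.4 CPM under +UVB (-2.73, SE 0.38, edgeR adjusted p = 1.96e-05). The +FR+UVB libraries were nearly identical, whereas the +UVB libraries spread almost 3-fold, all of them higher. *UF3GT* (AT5G54060), an anthocyanin glycosyltransferase, had 4.64, 3.83 and 5.03 CPM under +FR+UVB and 27.4, 60.1 and 12.7 CPM under +UVB (-2.89, SE 0.51, edgeR adjusted p = 0.000436). *DFR*, dihydroflavonol reductase, had 6.65, 9.48 and 14.6 CPM under +FR+UVB and 39.1, 103 and 20.1 CPM under +UVB (-2.39, SE 0.56, edgeR adjusted p = 0.00728). *LDOX*, the next enzyme, fell by 2.13 (edgeR adjusted p = 0.00537) and the glucosyltransferase *AT4G14090* by 2.36 (edgeR adjusted p = 0.0036). In these genes +UVB replicate 2 was the highest and replicate 3 the lowest of its group. Without +UVB replicate 2, *DFR* (edgeR adjusted p = 0.103) and *AT4G14090* (0.0529) were not called, nor was *DFR* without +FR+UVB replicate 1 (0.0595). The acyltransferase-like genes *AT1G03940* and *AT1G03495*, among the 8 largest falls, followed the same order of libraries, with 2.75, 1.95 and 3.52 CPM under +FR+UVB and 22.1, 40.3 and 9.89 CPM under +UVB for *AT1G03940* (-3.13, edgeR adjusted p = 5.31e-05). Other members linked to anthocyanins were not called, among them the activator genes *MYB75* (-1.99, edgeR adjusted p = 0.0562) and *TT8* (-1.14, edgeR adjusted p = 0.133) and the transferase gene *TT19* (-0.49, edgeR adjusted p = 0.375). *CHS*, the chalcone synthase gene, stood at 5480, 5880 and 5850 CPM under +FR+UVB and 5250, 6400 and 7490 CPM under +UVB, without a call (-0.15, edgeR adjusted p = 0.656), and, like *MYB75*, *TT8* and *TT19*, was chosen with its values known. The falls were not particular to the mutant. In wild type 4 members of the list were called lower, *UF3GT* (-2.46), *DFR* (-2.32), *AT4G14090* (-2.20) and *LDOX* (-2.14), while *MYB90* (-0.99) was not. In *uvr8-6* these 5 genes had -2.23, -2.71, -1.80, -1.63 and -0.32 in the same order, with 1 member of the list called lower.

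Other falls lost the call without +UVB replicate 1. The peroxidase gene *PRX52* had 0.115, 0.122 and 0.168 CPM under +FR+UVB and 23.0, 0.355 and 0.339 CPM under +UVB, a log2 fold change of -5.80 (edgeR adjusted p = 0.00318). Without that library it was -1.34 (edgeR adjusted p = 0.616). *SAG13*, a senescence-associated gene, had 1.15, 2.43 and 0.950 CPM under +FR+UVB and 51.2, 6.60 and 3.11 CPM under +UVB (-3.76, edgeR adjusted p = 0.0484), and -1.71 without the library (edgeR adjusted p = 0.519). The potassium transporter gene *HAK5* (-3.55, edgeR adjusted p = 0.0139) and *AT5G44572* (-3.46, edgeR adjusted p = 0.0209) were likewise not called without it. *HAK5* kept much of its fold there (-2.50, edgeR adjusted p = 0.147), and *AT5G44572* did not (-0.46, edgeR adjusted p = 0.879). *SAG13*, *HAK5* and *AT5G44572* also lost the call when any of the 3 +FR+UVB libraries was left out. *WRKY18*, the called member of the 21 stress and defence genes, was lost too (-1.23 with all libraries, edgeR adjusted p = 0.265 without +UVB replicate 1), and the median of that list was -0.41 with and 0.04 without the library. Among genes named after their values were seen, *AT4G12490* stood at 1.55, 4.62 and 1.17 CPM under +FR+UVB and 1390, 2.54 and 1.13 CPM under +UVB, and the extensin gene *EXT4* at 205, 218 and 230 CPM under +FR+UVB and 2960, 186 and 202 CPM under +UVB. In the other 5 libraries *AT4G12490* stayed at or under 4.62 CPM and *EXT4* between 186 and 230 CPM. Light-harvesting and photosystem genes had 0 calls among 49 members and a median of 0.22, or 0.00 without this library.

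**Figure D3:**
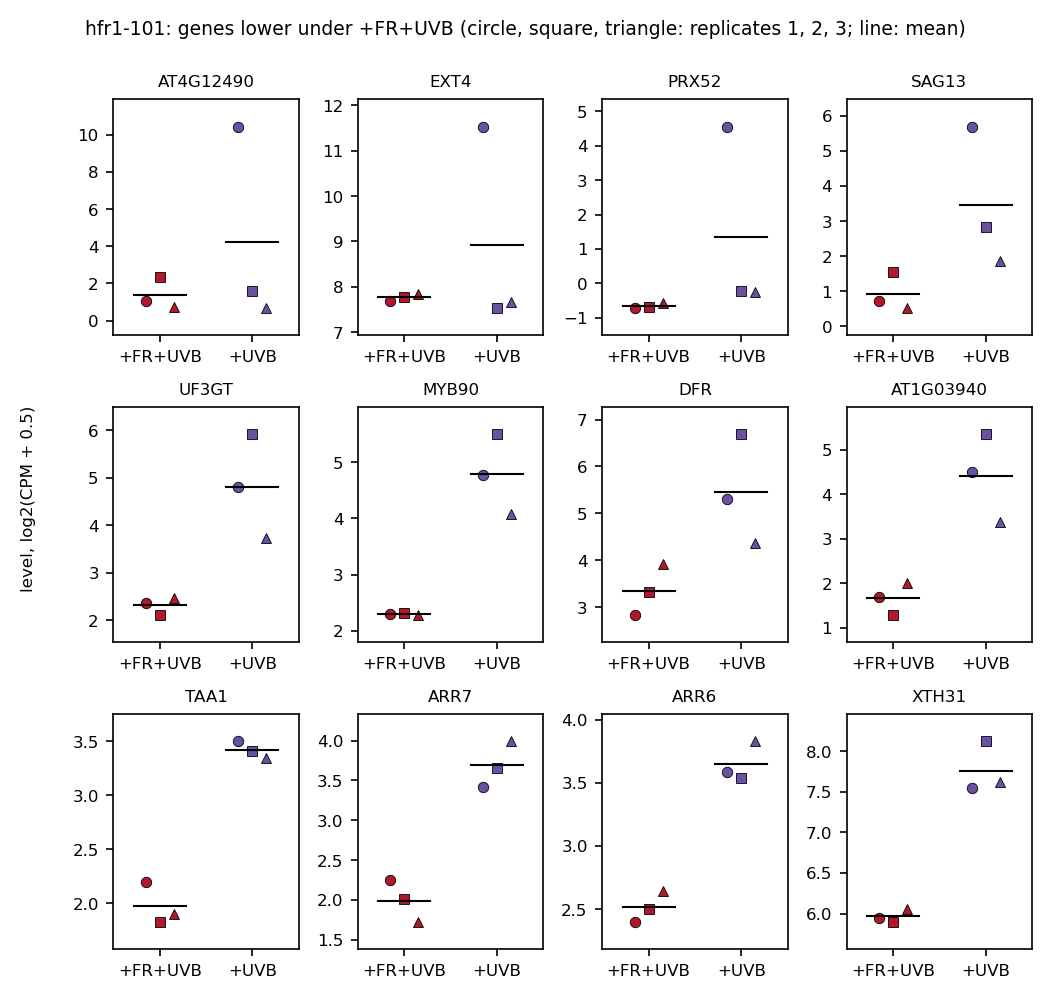
Levels of 12 genes with a lower mean under +FR+UVB in *hfr1-101*, as log2(CPM + 0.5) per library, +FR+UVB on the left and +UVB on the right, with lines at the means. For *AT4G12490* and *EXT4* only the first +UVB library lies above all +FR+UVB libraries. In the top row the first +UVB library (circle) lies far above the others, as for *PRX52* with 23.0 CPM against 0.355 and 0.339 CPM, while for *MYB90*, *TAA1* and *ARR7* all 3 +UVB libraries lie above all 3 +FR+UVB libraries.

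The same mutant was also sampled under +FR and WL, without UV-B, in libraries that the comparison above does not use. There 348 genes rose (1.66%) and 238 fell (1.14%), and 86 of the 238 were among the 95 organelle-genome genes, of which 0 were called under UV-B. The direct test of the difference between the light backgrounds, given below, called 0 of these 95 genes. The 86 remain part of the 238 in the shares that follow. Without the first WL library the falls numbered 114. Of the 182 genes that rose under UV-B, 131 also rose without it, 72% of those 182 and 37.6% of the 348. *PIL1* averaged 143 ± 9.65 CPM under +FR+UVB and 1.26 ± 0.682 CPM under +UVB, next to 130 ± 16.8 CPM under +FR (SD, n = 3 each), and its log2 fold changes were 6.80 with UV-B and 6.47 without. *HFR1* (4.56 with and 4.73 without UV-B), *ATHB2* (4.36 and 3.81) and *CKX5* (3.66 and 4.71) were likewise called in both light backgrounds. Of the 126 falls, 39 were shared, 31% of that list and 16.4% of the 238. *TAA1* (-1.56 with and -1.27 without UV-B), *ARR7* (-1.83 and -1.97) and *ARR4* (-1.06 and -1.08) were among them. Without +UVB replicate 1, the shared share was 80.7% of 150 rises and 48.2% of 83 falls. Medians depended here too on the comparison that chose the list. The 348 genes that rose without UV-B had a median log2 fold change of 0.85 with UV-B and 1.54 without, and 304 of them were above 0 with UV-B, while the 182 genes that rose with UV-B had a median of 1.54 with and 1.56 without, and 170 of them were above 0 without it.

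Whether the effect of low R:FR differed with and without UV-B was tested directly, as +FR+UVB against +UVB minus +FR against WL. The difference was called for 194 genes (0.927%), with a higher value under UV-B for 113 and a lower one for 81. *IAA29* had the larger change under UV-B (5.60 with and 2.76 without, difference 2.85, edgeR adjusted p = 0.0016). Its level was 112 ± 26.1 CPM under +FR and 16.3 ± 5.81 CPM under WL, both above the corresponding levels with UV-B. *XTR7* had the smaller change under UV-B (2.16 with and 4.18 without, difference -2.02, edgeR adjusted p = 0.00695). It stood at 352 ± 60.4 CPM under +FR and 19.2 ± 7.62 CPM under WL (SD, n = 3 each), so that even its highest +FR+UVB library, at 36.3 CPM, was far below the +FR level. *GH3.3* (1.88 with and 4.40 without, difference -2.51, edgeR adjusted p = 0.0417) and *PHYA* (1.14 and 2.23, difference -1.09, edgeR adjusted p = 0.00177) also rose less under UV-B. The kinase gene *BSK6* had log2 fold changes of 0.31 with and 1.83 without UV-B (difference -1.52, edgeR adjusted p = 0.00099), and *IAA26* had -0.09 with and 0.81 without (difference -0.90, edgeR adjusted p = 0.00099). Of the 81 genes with a lower value 46 had risen under +FR against WL. The count of 194 was unstable. It was 78 without the first *hfr1-101* +UVB library, with the split turned to 27 higher (25 of them among the 113) and 51 lower (49 among the 81), 592 without the third, 80 and 101 without the first and second +FR libraries, 96 and 81 without the first and second +FR+UVB libraries, and 104 and 115 without the first and second WL libraries. Without TMM factors it was 308, split into 51 higher and 257 lower.

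**Figure D4:**
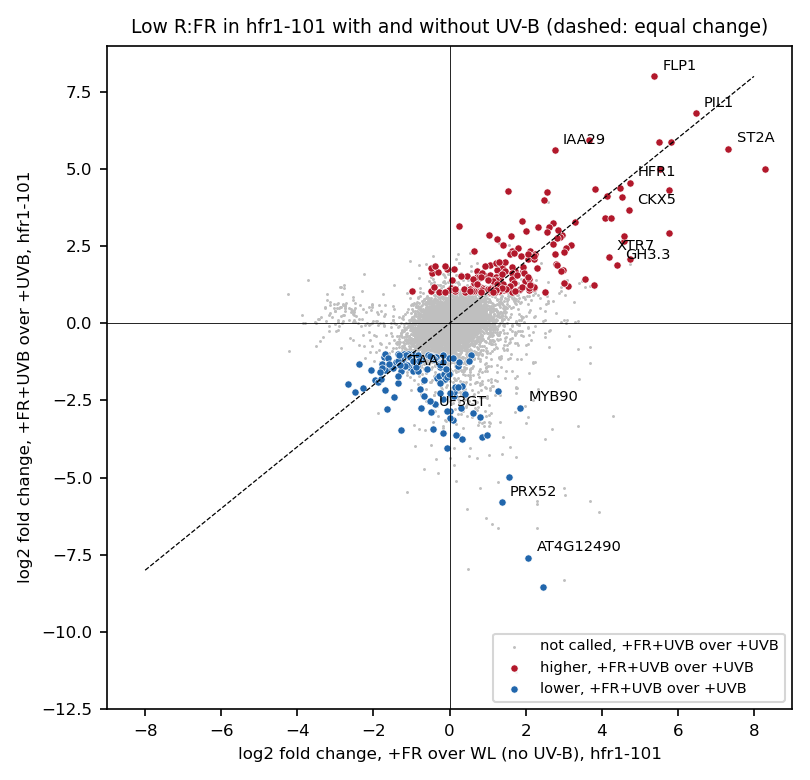
Log2 fold change of each of the 20926 genes in *hfr1-101* under +FR+UVB over +UVB (vertical axis) and under +FR over WL (horizontal axis). Red and blue points rose or fell under UV-B, grey points were not called, and the dashed line marks equal change. *PIL1* (6.80 and 6.47) lies near the line, *IAA29* (5.60 and 2.76) above it and *XTR7* (2.16 and 4.18) below it, and *PRX52* is low on the vertical axis.

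In wild type the same treatment called fewer genes, 84 higher (0.401%) and 42 lower (0.201%), and in *uvr8-6* 230 higher (1.1%) and 96 lower (0.459%). This order depended on the fit. With the compared libraries alone, wild type had the largest count of genes higher, as given below. Of the 182 genes that rose in *hfr1-101*, 50 also rose in wild type (27.5% of that list and 59.5% of the 84) and 110 in *uvr8-6* (60.4% and 47.8% of the 230). Counts do not show that the genotypes differ, and the direction was shared by most: 172 of the 182 had a positive value in wild type, and 177 had one in *uvr8-6*. Medians depended on which genotype chose the list. Over the 182 genes chosen in *hfr1-101* the median was 1.54 in *hfr1-101* and 0.81 in wild type, and over the 84 chosen in wild type it was 1.54 in *hfr1-101* and 1.56 in wild type, with 77 of the 84 positive in *hfr1-101*. These comparisons share no library with each other. The counts in wild type were moved most by single libraries, to 35 higher and 10 lower without +FR+UVB replicate 2, 54 and 27 without +UVB replicate 1, and 42 and 26 without +UVB replicate 2. In *uvr8-6* the falls numbered 56 without +UVB replicate 2 and 195 without +UVB replicate 3. The *uvr8-6* +UVB libraries had 719, 239 and 44.4 CPM of *AT4G12490*, against 1.14, 2.92 and 3.2 CPM under +FR+UVB. For *EXT4* they had 2120, 897 and 466 CPM, against 240, 307 and 183 CPM. The *uvr8-6* comparison was therefore not free of the signal seen in the first *hfr1-101* +UVB library.

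The difference between *hfr1-101* and wild type in the effect of low R:FR under UV-B was called for 15 genes (0.0717%), 14 with a higher value in *hfr1-101* and 1 with a lower value. *ATHB2* averaged 33.3 CPM under +FR+UVB and 3.88 CPM under +UVB in wild type, a log2 fold change of 3.1, so the +UVB levels of the 2 genotypes were alike and the +FR+UVB level was higher in the mutant (difference 1.27, edgeR adjusted p = 0.000768). *HFR1* rose by 4.56 in *hfr1-101* and 2.59 in wild type, where it averaged 35.4 ± 1.09 CPM under +FR+UVB and 5.90 ± 0.879 CPM under +UVB (difference 1.97, edgeR adjusted p = 0.00532). *ST2A* had 15.6 CPM under +FR+UVB and 3.45 CPM under +UVB in wild type and differed most among the genes with a higher value (5.66 against 2.17, difference 3.49, edgeR adjusted p = 0.0058). *KAT1*, an inward potassium channel of guard cells, had 56.1, 55.9 and 44.1 CPM in the mutant under +FR+UVB and 22.2, 23.0 and 19.3 CPM under +UVB. In wild type it averaged 18.1 CPM under +FR+UVB and 19.0 CPM under +UVB, so that the change was 1.27 in *hfr1-101* and -0.07 in wild type (difference 1.34, edgeR adjusted p = 0.00177). *AT3G21330* (3.42 and 1.11, difference 2.32, edgeR adjusted p = 0.00267), *BIM1* (1.03 and 0.23, difference 0.79, edgeR adjusted p = 0.00532), *PHYB* (0.98 and 0.46, difference 0.52, edgeR adjusted p = 0.00532) and *AUX1* (1.29 and 0.24, difference 1.05, edgeR adjusted p = 0.0318) followed. Of the 14 genes, 12 rose in *hfr1-101* and 4 of those also in wild type. The exception in direction was the carbonic anhydrase gene *ACA2* (-0.61 in *hfr1-101* and 2.1 in wild type, edgeR adjusted p = 0.0377), a scarce transcript whose call was lost in 10 of the 12 fits that left out 1 library.

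Many strong rises did not pass this test. For *PIL1* the change was 6.80 in *hfr1-101* and 5.33 in wild type, and the difference of 1.47 had an edgeR adjusted p of 0.422 although its level under +FR+UVB was 143 ± 9.65 CPM in the mutant against 25.6 ± 3.22 CPM in wild type. *FLP1* (8.00 and 5.60, edgeR adjusted p = 0.712), *XTR7* (2.16 and 0.39, edgeR adjusted p = 0.147) and *PAR1* (2.56 and -0.11, edgeR adjusted p = 0.125) did not pass either. At an unadjusted p under 0.05, 1523 genes differed. The count of 15 was 9 without the second *hfr1-101* +FR+UVB library. Against *uvr8-6*, 3 genes differed (0.0143%, with 1127 at an unadjusted p under 0.05): *ATHB2* (difference 1.49, edgeR adjusted p = 7.33e-06), *ACDO1* (0.77, edgeR adjusted p = 0.00221) and the D-type cyclin gene *CYCD1;1* (1.13, edgeR adjusted p = 0.0102), each with the higher value in *hfr1-101*. Without *hfr1-101* +UVB replicate 1, 12 genes differed from *uvr8-6*.

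**Figure D5:**
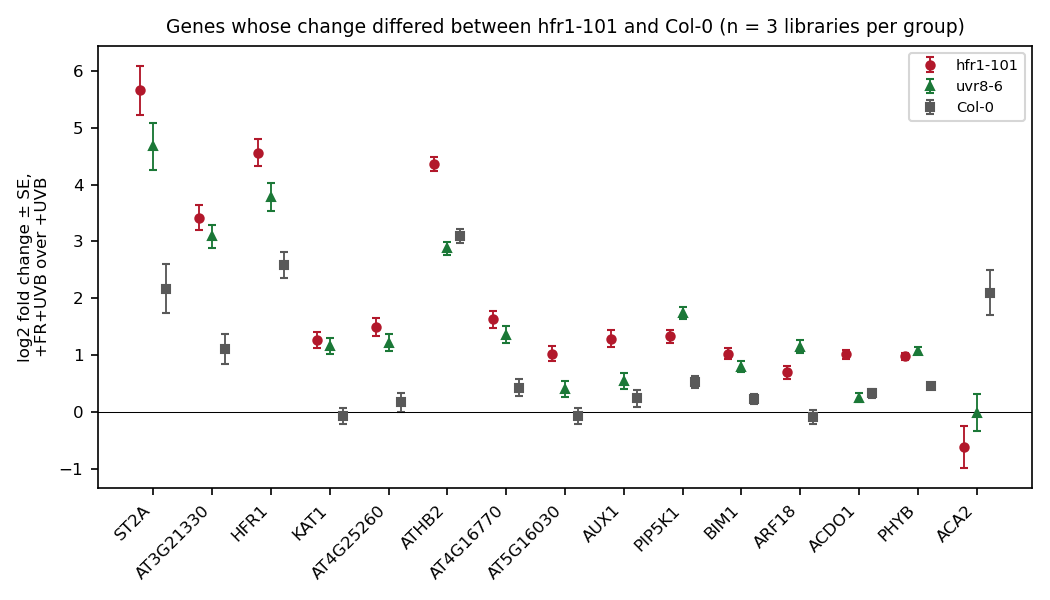
Log2 fold change under +FR+UVB over +UVB (vertical axis, with SE, n = 3 libraries per group) in *hfr1-101* (circles), *uvr8-6* (triangles) and Col (squares) for the 15 genes whose change differed between *hfr1-101* and Col. The *hfr1-101* value is above the Col value in 14 genes, as for *ST2A* with 5.66 against 2.17 in Col, and below it for *ACA2*.

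PIF binding motifs were looked up upstream of the genes that changed, on both strands, in the 250 bases before each annotated gene start. The G-box (CACGTG) was present for 11.5% of the 182 genes that rose and 5.56% of the 126 that fell, and for 7.32% of 20814 genes tested with coordinates. The PBE-box (CACATG or CATGTG) was present for 25.8% of rises, 14.3% of falls and 11.2% of all genes. In 1000 bases the G-box was found for 23.6% of rises, 15.9% of falls and 15.9% of all genes, and the PBE-box for 65.4%, 38.9% and 38.2%. A match describes the letters and not a bound site. Such motifs also lay close to the start of genes that fell, such as *MYB90* (G-box 46 bases upstream) and *DFR* (G-box 14 bases upstream). Uncalled genes had them too, such as *FHL* (G-boxes 75 and 129 bases upstream) and the reference gene *PP2A* (G-box 54 bases upstream). The windows below were read from the TAIR10.1 genome, hold no annotated exon, are given 5′ to 3′ on the strand of the gene, and have each G-box or PBE-box in capitals. They are shown only for some of the genes that rose, chosen because their motifs lie close together or close to the gene start: *CKX5* (chr1:28319005-28319155, minus strand, 780 to 630 bases upstream, with 4 G-boxes), *PIL2* (chr3:22991339-22991379, minus strand, 670 to 630 bases upstream), *YUC8* (chr4:14192069-14192139, plus strand, 500 to 430 bases upstream), *IAA19* (chr3:5263811-5263951, plus strand, 190 to 50 bases upstream, with 1 motif of each kind), *AT3G21320* (chr3:7501998-7502038, minus strand, 150 to 110 bases upstream) and *SAUR22* (chr5:5975177-5975207, minus strand, 120 to 90 bases upstream).
*CKX5*: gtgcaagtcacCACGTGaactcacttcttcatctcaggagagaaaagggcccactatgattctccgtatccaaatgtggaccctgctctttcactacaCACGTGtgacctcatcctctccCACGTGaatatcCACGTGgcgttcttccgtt
*PIL2*: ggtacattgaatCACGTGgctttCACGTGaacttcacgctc
*YUC8*: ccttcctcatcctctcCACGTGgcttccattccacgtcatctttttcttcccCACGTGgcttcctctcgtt
*IAA19*: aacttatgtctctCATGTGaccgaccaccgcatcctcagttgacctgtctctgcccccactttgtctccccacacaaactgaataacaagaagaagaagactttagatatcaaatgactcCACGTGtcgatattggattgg
*AT3G21320*: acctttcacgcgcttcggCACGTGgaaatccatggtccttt
*SAUR22*: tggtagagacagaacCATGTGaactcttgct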

How the data were processed

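Per the labels and the study's methods, stranded TruSeq libraries were made from 400 ng RNA and sequenced as single-end 100 bp reads. The authors checked reads with FastQC 0.10.2, mapped them to TAIR10 with TopHat2 2.0.13, processed alignments with PicardTools and counted reads on genes with HTSeq 0.6.1. They deposited raw counts of 33602 genes, and a table of normalized signal made with edgeR 3.4.2 for 20926 genes. These deposited signal values equal the counts scaled by TMM factors within 0.0283%, so they served only to define the genes tested.

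The counts of 36 libraries in 12 groups were fitted in edgeR 4.0.16 (R 4.3.3, limma 3.58.1), with TMM factors, the legacy version of its quasi-likelihood test and Benjamini-Hochberg adjustment over all genes tested. Comparisons were called at a fold change over 2 and adjusted p under 0.05, and differences between comparisons at adjusted p under 0.05. SE was derived from the F statistic. Python 3.11.15 and matplotlib 3.10.9 were used for tables and figures, after the method was tested on simulated data. A gene with at most 3 counts in every library of a group was taken as at the floor, and this floor covers counting error only.

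Members and gene lists were chosen with earlier results of these data known. Named genes are those with qPCR primers in the study, the 8 largest rises and falls without overlap of libraries and with a mean of at least 50 normalized counts in the higher group, up to 4 called members of each list, up to 5 genes per direction of each difference, and *HFR1* and *UVR8*. Other names were chosen after their values were seen, among them genes of the differences beyond the 5 per direction. Alternatives were library-size scaling, DESeq2 1.42.0, the likelihood ratio test, the current quasi-likelihood form, all 26408 genes with a count, the 20867 genes kept by filterByExpr, 20831 nuclear genes (added after the data were seen), the compared libraries alone, a replicate block, other fold minimums and leaving out each library. Reference coordinates are those of TAIR10.1, where 20814 of the 20926 genes were found, and no sequence was read across builds.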

Additional observations from a re-analysis of the deposited data

Results flagged for a closer look

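The effect of low R:FR under UV-B differed between *hfr1-101* and another genotype, or between light backgrounds of *hfr1-101*, by a direct edgeR test of the difference for the genes given here, with values as differences of log2 fold changes. Against wild type the value was higher in *hfr1-101* for *ATHB2* (1.27), *KAT1* (1.34), *AT3G21330* (2.32), *ACDO1* (0.68) and *HFR1* (1.97), and lower for *ACA2* (-2.71). Against *uvr8-6* it was higher for *ATHB2* (1.49), *ACDO1* (0.77) and *CYCD1;1* (1.13), and *CYCD1;1* was not called without *uvr8-6* +UVB replicate 3 (edgeR adjusted p = 0.0567). With the compared libraries alone, *KAT1* and *ACDO1* (edgeR adjusted p = 0.0987 each) and *ACA2* (0.139) were not called against wild type. Against *uvr8-6*, *ACDO1* (0.399) and *CYCD1;1* (0.346) were not called in that fit. *ACDO1* had 451, 480 and 412 CPM under +FR+UVB and 204, 221 and 237 CPM under +UVB in *hfr1-101*, and lies 2659 bases from *FLP1*. Its own rise of 1.02 missed the fold minimum in 5 of 17 alternatives.

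With UV-B minus without UV-B in *hfr1-101*, the difference was positive for *AT4G19380* (1.67), *AT5G54130* (1.46), *IAA29* (2.85), *AT3G56140* (0.47) and *GLUR2* (1.07). It was negative for *BSK6* (-1.52), *IAA26* (-0.90), *AT5G02530* (-0.74), *PHYA* (-1.09) and *AT5G17780* (-1.33). With the compared libraries alone, *AT3G56140* (edgeR adjusted p = 0.0835), *GLUR2* (0.0601) and *AT5G02530* (0.051) were not called. The positive values arose in different ways. *AT4G19380* was at 3.45 CPM under +FR against 17.8 CPM under WL, while it had 13.9, 14.4 and 15.7 CPM under +FR+UVB against 19.0, 22.9 and 29.3 CPM under +UVB, so its smaller fall was in the groups with UV-B (-0.69 with and -2.37 without). *GLUR2*, a glutamate receptor-like gene, had changes of 0.62 with and -0.45 without UV-B.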

How the results depend on the processing

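The counts below are of genes, higher and then lower. The comparison of +FR+UVB with +UVB in *hfr1-101* gave 182 and 126. Fitting only the compared libraries gave 120 and 52, a minimum of 1.5-fold 363 and 268, and no minimum 840 and 416. The lower count was 208 without TMM factors, 195 with DESeq2 and 194 with the likelihood ratio test. Leaving out 1 library gave 138 to 211 and 66 to 311. For +FR against WL in *hfr1-101* the lower count was 148 with the compared libraries alone, the counts were 673 and 488 at 1.5-fold and 1321 and 996 without a minimum, and 294 to 353 and 114 to 258 without 1 library. In wild type the higher count was 174 with the compared libraries alone, the counts were 189 and 162 at 1.5-fold and 401 and 305 without a minimum, and 35 to 88 and 10 to 53 without 1 library. In *uvr8-6* they were 114 and 57 with the compared libraries alone, 414 and 215 at 1.5-fold, 736 and 371 without a minimum, and 176 to 239 and 56 to 195 without 1 library.

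The difference from wild type, 15 genes, was 29 with DESeq2, 24 with the likelihood ratio test and 9 to 20 without 1 library. The difference from *uvr8-6*, 3 genes, was 9 without TMM factors, 44 with DESeq2, 29 with the likelihood ratio test, 1 with the compared libraries alone, 10 with the replicate block and 2 to 13 without 1 library. The difference between light backgrounds, 194 genes, was 308 without TMM factors (130 shared), 403 with DESeq2, 334 with the likelihood ratio test, 37 with the compared libraries alone and 78 to 592 without 1 library. Replicate numbers did not pair the libraries (correlations of same-numbered deviations -0.064, -0.119 and -0.017), and with the replicate block the main counts were 185 and 98, of which 179 and 95 were among those without it.

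Among 74 named genes, 45 kept direction and call in every alternative. With the compared libraries alone, *GH3.3* (edgeR adjusted p = 0.0947), *YUC8* (0.0638), *ATHB4* (0.0722), *SAUR68* (0.114), *DFR* (0.118) and *AT4G14090* (0.0933) were among the genes not called in the main comparison. Signs turned for uncalled genes near 0: *PIF5* (-0.00 without TMM factors, -0.01 to 0.16 without 1 library), *UVR8* (-0.08 without TMM factors, -0.01 with the compared libraries alone, -0.04 to 0.09 without 1 library) and *AT5G02530* (-0.07 without TMM factors, -0.02 to 0.13 without 1 library). The cause of these shifts was not tested. Depth limits the genes at the floor, of which 12 rose with every +UVB library at most 3 counts and 3 fell with every +FR+UVB library so.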

Other observations

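The genes in these paragraphs were named after their values were seen. The florigen gene *FT* stood at 7.74, 11.0 and 7.10 CPM under +FR+UVB and 1.23, 0.914 and 1.02 CPM under +UVB in *hfr1-101*, with no overlap (log2 fold change 3.02, SE 0.32, edgeR adjusted p = 1.81e-07). Its change was 2.67 in wild type and 2.85 in *hfr1-101* without UV-B. *FPF1*, a flowering-promoting factor gene, had 0.974, 2.25 and 1.23 CPM under +FR+UVB and was at the floor in every +UVB library, at least 8.78-fold higher (edgeR adjusted p = 9.38e-05). The DELLA gene *GAI*, a repressor of gibberellin responses, stood at 33.5, 39.2 and 32.2 CPM under +FR+UVB and 14.3, 16.1 and 12.3 CPM under +UVB (1.30, SE 0.13, edgeR adjusted p = 1.29e-07).

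Among single genes, the ferric reductase gene *FRO2* of iron uptake had 25.2, 32.6 and 22.5 CPM under +FR+UVB and 8.50, 6.55 and 8.42 CPM under +UVB (1.77, edgeR adjusted p = 0.0111). *CYP82C4*, which acts in the synthesis of an iron-mobilizing coumarin, had 16.8, 32.8 and 14.9 CPM under +FR+UVB and 4.87, 6.29 and 6.50 CPM under +UVB (1.87, edgeR adjusted p = 0.00571). Without UV-B their changes were -0.06 and -0.39, and the tests of the difference gave an edgeR adjusted p of 0.142 for *FRO2* and 0.0575 for *CYP82C4*. The log2 fold changes of *CYP79B2*, *CYP79B3* and *CYP83B1*, whose enzymes act in indole glucosinolate synthesis, were -2.52, -1.47 and -1.31, and none of the 3 was called without +UVB replicate 1 (edgeR adjusted p = 0.0728, 0.0598 and 0.163). No list of either pathway was tested.

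Neighbouring genes rose together at several of the loci with the largest rises. *FLA5*, at least 14.5-fold higher, ends 5322 bases before *FLP1*. *AT1G02350* had 18.5, 18.8 and 16.4 CPM under +FR+UVB and 1.49, 1.88 and 2.26 CPM under +UVB (3.25, SE 0.19, edgeR adjusted p = 7.52e-13) and lies 1937 bases from *HFR1*. *AT3G21330*, given above, lies 5351 bases from *AT3G21320*. How often neighbours rose together over the genome was not tested.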
